A study of Mus musculus with 6 samples.

Results

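Keratins, junction proteins and epithelial regulators of the ocular surface were examined in the embryonic mouse eye. The 31 genes were chosen by name as genes of the cornea, conjunctiva and lid, and 30 of them had at least 1 probe set of the Affymetrix mouse array that carries a single gene symbol, 57 probe sets of the 45101 on the array. Dsg3 was not analysed here, and 1 probe set annotated to both Krt17 and Krt14 was left out. RNA came from the posterior eye at embryonic day 15.5 of 3 Oa1-/- samples and 3 WT samples. Each sample pooled the eyes of 6 embryos of 1 dam, and the anterior eye had been cut away before extraction, per the labels' protocols. Oa1, now named Gpr143, encodes a receptor of pigment cells. The labels name neither the strain nor the sex of the embryos, and do not say which part of Oa1 is missing.

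The surface of the eye is covered by a stratified epithelium that makes keratin filaments, paired from a type I and a type II keratin, and anchors them at desmosomes. The corneal epithelium is known for Krt12, basal cells of stratified epithelia for Krt5, Krt14 and Krt15, and the conjunctiva and other mucosae for Krt4, Krt13 and Krt19. These cells cover the front of the eye, the side that the protocols describe as cut away. In such bulk samples, fewer cells of a type and less RNA per cell cannot be told apart.

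Values are MAS5 signals on a linear scale, and the brightest probe set over the 6 arrays stands for a gene. Signals of different probe sets were compared only to pick the brightest, to filter, to call genes bright or dim, and against background controls. They were also summed within lists of tissue markers, where bright probe sets weigh most. None of this measures RNA amounts of 1 gene against another. The targeted gene followed the labels, with Gpr143 at 28.3, 39.1 and 6.02 on the Oa1-/- arrays and at 250.05, 257 and 246 on the WT arrays (limma adjusted p = 0.318). As a measure of background, the highest of 27 control probe sets for bacterial transcripts read between 22.1 and 39.3 on an array. WT replicate 3 stood apart in the Y-linked gene Eif2s3y, at 9.26 against 406 to 805 on the other arrays. Kdm5d, also Y-linked, read 13.5 there against 377 to 736. Both lay below that array's highest bacterial control (29.9), so Y-linked RNA of these genes was not measured above background there. Oa1-/- replicate 1 had the highest 5' signal for 18S ribosomal RNA, 11826 against 2227 to 5201. Retinal genes were bright, with Atoh7, which retinal ganglion cells need, at 14987 to 15864 on the Oa1-/- arrays and 13532 to 14205 on the WT arrays. Lens genes were bright too. The crystallin gene Cryaa read 23318 to 23580 on the Oa1-/- arrays and 19548 to 24690.4 on the WT arrays, so lens RNA was measured in every sample. The corneal genes Krt12 and Kera read 332 to 3203 and 3180 to 6575 over the 6 arrays, above the bacterial controls. RNA of genes of the front of the eye was thus measured in every sample, although the protocols describe its removal. How complete the cut was is not given and was not tested.

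Promoters are shown for 1 gene each of the main groups among the members, the corneal keratin Krt12, the basal keratin Krt5, the desmosome gene Dsp and the adhesion gene Epcam. Each runs from 250 bases before to 50 bases after the RefSeq transcription start (GRCm38.p6), 5' to 3' on the strand of the gene. Capitals mark TATAAA, the TATA box core, and CACCTG, the E-box bound by Zeb and Snail repressors of epithelial genes, read as CAGGTG where it lies on the opposite strand.
Krt12, chr11:99422210-99422509, - strand: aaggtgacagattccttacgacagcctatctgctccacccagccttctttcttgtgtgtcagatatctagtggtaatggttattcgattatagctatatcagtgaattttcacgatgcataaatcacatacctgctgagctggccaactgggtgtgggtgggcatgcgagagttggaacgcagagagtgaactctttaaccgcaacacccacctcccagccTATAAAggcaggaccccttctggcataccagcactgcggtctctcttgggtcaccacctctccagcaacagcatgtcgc
Krt5, chr15:101712856-101713155, - strand: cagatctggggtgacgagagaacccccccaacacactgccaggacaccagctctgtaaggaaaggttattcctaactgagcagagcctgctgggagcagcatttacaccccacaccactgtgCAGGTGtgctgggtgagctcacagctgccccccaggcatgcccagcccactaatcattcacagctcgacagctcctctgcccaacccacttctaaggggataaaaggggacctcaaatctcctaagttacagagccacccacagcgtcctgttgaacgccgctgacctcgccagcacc
Dsp, chr13:38151044-38151343, + strand: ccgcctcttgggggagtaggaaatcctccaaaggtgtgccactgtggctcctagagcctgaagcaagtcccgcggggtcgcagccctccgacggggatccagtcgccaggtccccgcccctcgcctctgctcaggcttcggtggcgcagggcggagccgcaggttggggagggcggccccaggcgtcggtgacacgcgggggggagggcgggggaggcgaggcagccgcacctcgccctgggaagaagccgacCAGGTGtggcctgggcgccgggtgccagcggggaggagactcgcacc
Epcam, chr17:87635729-87636028, + strand: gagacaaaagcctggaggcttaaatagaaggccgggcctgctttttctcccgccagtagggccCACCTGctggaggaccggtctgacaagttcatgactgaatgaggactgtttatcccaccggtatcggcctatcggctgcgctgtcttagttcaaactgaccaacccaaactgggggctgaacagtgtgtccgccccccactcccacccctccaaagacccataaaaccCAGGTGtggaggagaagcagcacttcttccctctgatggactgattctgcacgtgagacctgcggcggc
Both motifs were searched on both strands and cannot overlap. The desmosomal cadherin genes Dsc2, Dsc3 and Dsg2 were left out of the member promoters, so the counts do not cover every member gene. The promoters counted were 16, of 14 other member genes. TATAAA begins 29 bases before the start of Krt12, and this was the only one of the 16 to hold it, against 13.6% of all 32851 promoters. CACCTG was found in 9 of the 16, those of Cldn4, Cldn6, Cldn7, Dsp, Epcam, Grhl3, Krt5, Krt7 and Sfn, against 20.2% of all promoters. A match is a description of these letters and not a bound site.

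Keratins of the corneal and basal epithelium spanned a wider range among the WT pools than among the Oa1-/- pools. Krt12, the type I keratin of the corneal epithelium, read 1369.7, 1241 and 1046 on the Oa1-/- arrays (1419231_s_at), against 332, 2502 and 3203 on the WT arrays. The 3 Oa1-/- values lay within 1.31-fold of each other and inside the WT values, which spanned 9.65-fold, WT replicate 1 being the lowest and WT replicate 3 the highest of the 6 arrays. The other Krt12 probe set (1419230_at) read 1217, 1036 and 788 on the Oa1-/- arrays, against 239, 1987 and 2658 on the WT arrays, in the same order. The log2 change of Krt12 was -0.20 (SE 0.71, limma adjusted p = 0.995), and it ran from -1.21 without WT replicate 1 to 0.39 without WT replicate 3.

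The basal keratins Krt15 and Krt5 had the same array at each end. Krt15, a type I keratin of basal cells, read 2586, 2228 and 1783 on the Oa1-/- arrays, against 1268, 2897 and 4673 on the WT arrays. Krt5, the type II partner of Krt14 in basal cells, read 1739, 1388 and 1284 on the Oa1-/- arrays, against 1114, 1858 and 2589 on the WT arrays. In both genes the Oa1-/- values lay between WT replicate 1 and WT replicate 3, so the groups overlapped. Their log2 changes were -0.25 (SE 0.40) for Krt15 and -0.26 (SE 0.27) for Krt5, with limma adjusted p-values of 0.986 and 0.985. Without WT replicate 3 they were 0.18 and 0.02, and without WT replicate 1 they were -0.76 and -0.58.

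Krt6a, a type II keratin of activated and suprabasal epithelium, read 257, 244 and 179.6 on the Oa1-/- arrays (1422784_at), against 98.1, 279.7 and 385 on the WT arrays. Its values followed the WT pattern of Krt12, and its log2 change was 0.01 (SE 0.41, limma adjusted p = 1.00), with -0.52 without WT replicate 1. A further Krt6a probe set, 1422783_a_at, varied less, from 192 to 195.5 on the Oa1-/- arrays and from 139 to 202 on the WT arrays. Krt14 was highest on WT replicate 2, with 289, 369 and 337 on the Oa1-/- arrays and 269.9, 442 and 283 on the WT arrays (1423935_x_at). Its next brightest probe set, 1460347_at, was highest on Oa1-/- replicate 2, with 182, 298 and 193 on the Oa1-/- arrays and 147, 264 and 196 on the WT arrays. In the genome Krt5 and Krt6a are neighbours on chromosome 15, and Krt13, Krt15 and Krt19 neighbour each other on chromosome 11, with 0 coding genes between them in RefSeq.

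The keratins of simple and mucosal epithelium were Krt19, Krt7, Krt4 and Krt13. Krt19, a type I keratin of simple and conjunctival epithelium, read 240.5, 219.97 and 176 on the Oa1-/- arrays, against 253, 259 and 391 on the WT arrays. All 3 Oa1-/- values lay below all 3 WT values, with means of 212 ± 33.2 in Oa1-/- and 301 ± 77.7 in WT (SD, n = 3 each). The log2 change was -0.46 (SE 0.21), with an unadjusted limma p of 0.0549 and an adjusted p of 0.985, and it was -0.27 without WT replicate 3. Krt7 read 124 to 169 on the Oa1-/- arrays and 151 to 182 on the WT arrays, with overlap. Krt4 was highest on WT replicate 3 at 140.3, above 59.2 to 77.5 on the Oa1-/- arrays and 43.3 and 49.6 on the other WT arrays. Krt13, the partner of Krt4, was near the background, at 3.59, 6.39 and 48.4 on the Oa1-/- arrays and 32.0, 20.3 and 91.8 on the WT arrays. It lay under the filter and was not tested, as was Krt17, whose brightest probe set read 8.57 to 25.2 on the Oa1-/- arrays and 8.56 to 21.8 on the WT arrays.

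**Figure D1:**
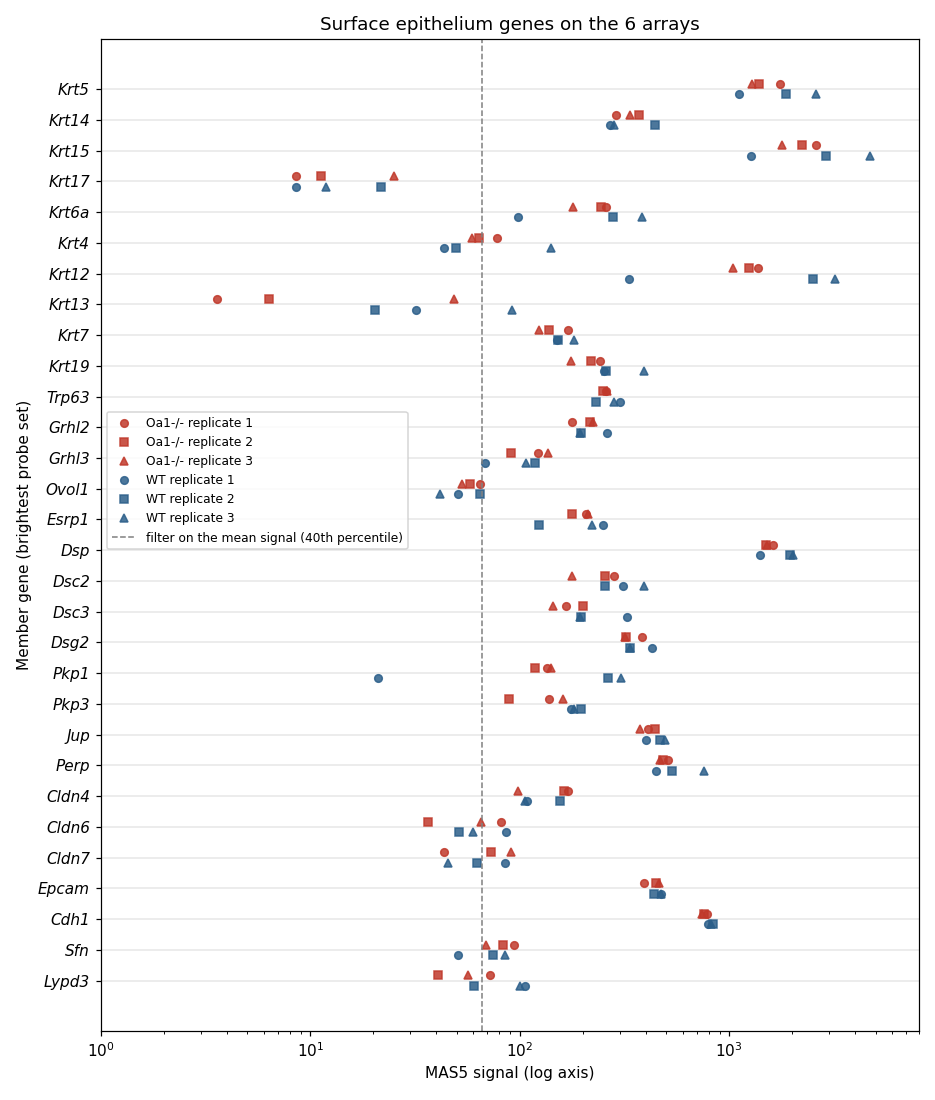
MAS5 signal (log axis) of the brightest probe set of each of the 30 genes, 1 point per array, Oa1-/- above WT in each row, with the filter on mean signal (66.1) as a dashed line. Krt12 and Pkp1 have 1 WT point far below their other points, WT replicate 1 at 332 and 21.03, while the 6 points of Cdh1 nearly coincide.

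Some desmosome genes had the array order of the corneal keratins and others did not. Pkp1, the plakophilin of stratified epithelium, read 134.6, 118 and 141 on the Oa1-/- arrays, against 21.03, 264 and 305 on the WT arrays. WT replicate 1 was below that array's highest bacterial control (32.3), so its distance to the other arrays is not well measured, and the Oa1-/- values again lay between the WT values. The log2 change of Pkp1 was -0.02 (SE 0.72, limma adjusted p = 1.00), running from -1.03 without WT replicate 1 to 0.53 without WT replicate 3. Dsp, encoding desmoplakin, which ties keratin filaments to the desmosome, read 1612, 1497 and 1510.4 on the Oa1-/- arrays, against 1394 on WT replicate 1, 1944 on WT replicate 2 and 2017 on WT replicate 3. Perp, a membrane protein of desmosomes and a target of p63, read 508, 483 and 469 on the Oa1-/- arrays, against 447, 531.5 and 758 on the WT arrays. On these probe sets WT replicate 1 was lowest and WT replicate 3 highest, and the log2 changes were -0.19 (SE 0.14) for Dsp and -0.21 (SE 0.18) for Perp, each with a limma adjusted p of 0.985. Without WT replicate 3 these changes were -0.10 and -0.003, and without WT replicate 1 they were -0.36 and -0.37. A further Dsp probe set, 1435494_s_at, read 1666, 1208 and 1278 on the Oa1-/- arrays, against 1422, 1587 and 1886 on the WT arrays. There Oa1-/- replicate 2 was the lowest array, so the order of the keratins was seen on 1 of these Dsp probe sets only.

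The desmosomal cadherins Dsc2, Dsc3 and Dsg2 did not share this order. Dsc2 read 178 to 281 on the Oa1-/- arrays and 256 to 390.1 on the WT arrays. Dsc3, a desmocollin of basal layers, was highest on WT replicate 1, at 323, with 144 to 201 on the Oa1-/- arrays and 193 and 195 on the other WT arrays. Dsg2, the desmoglein of simple epithelia and heart, had 6 probe sets. Its brightest, 1439476_at, read 381, 320.1 and 317 on the Oa1-/- arrays, against 425, 336 and 334 on the WT arrays (log2 change -0.10, SE 0.15, limma adjusted p = 0.985). A dimmer one, 1460380_at, read 89.9, 98.0 and 81.7 on the Oa1-/- arrays, against 41.4, 72.4 and 44.6 on the WT arrays, without overlap. It had a log2 change of 0.65 (SE 0.25) with an unadjusted limma p of 0.0307 and an adjusted p of 0.985. Of the same gene, 1425619_s_at had the opposite order, at 58.3 to 77.5 on the Oa1-/- arrays and 84.5 to 89.2 on the WT arrays, so the probe sets of Dsg2 disagreed in direction.

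Pkp3, a plakophilin found in most epithelial desmosomes, read 138, 88.6 and 160.1 on the Oa1-/- arrays, against 175, 197 and 181 on the WT arrays. The groups did not overlap, and the log2 change was -0.50 (SE 0.22), with an unadjusted limma p of 0.0536 and an adjusted p of 0.985. It was -0.28 without Oa1-/- replicate 2, the lowest array. Jup, encoding plakoglobin, which serves desmosomes and adherens junctions, read 376 to 441 on the Oa1-/- arrays and 403 to 492 on the WT arrays.

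Of the adhesion and tight junction genes, Cdh1 and Epcam spanned 0.17 and 0.27 on the log2 scale over the 6 arrays, where the median over all probe sets tested was 0.50, and the claudins spanned 0.71 to 0.95. Cdh1, E-cadherin of epithelial adherens junctions, read 782, 755 and 739 on the Oa1-/- arrays, against 788, 833 and 819 on the WT arrays. All Oa1-/- values were below all WT values, by a small margin, at 759 ± 22.0 in Oa1-/- and 813 ± 23.0 in WT (SD, n = 3 each). Its log2 change was -0.10 (SE 0.09, limma adjusted p = 0.985). Epcam, an epithelial adhesion molecule that binds claudins, read 391 to 461 on the Oa1-/- arrays and 436 to 474 on the WT arrays (1416579_a_at), and its second probe set 142 to 184 and 125 to 149.6. The claudins, which seal tight junctions, were dim. Cldn4 read 97.8 to 170.2 on the Oa1-/- arrays and 106 to 156 on the WT arrays, Cldn7 43.6 to 91.3 and 45.5 to 85.04, and Cldn6, which was under the filter, 36.5 to 81.5 and 51.1 to 85.6.

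The regulators of epithelial identity differed among themselves in their order over the arrays. Trp63, the transcription factor of stratified epithelium, read 258, 250.4 and 260.3 on the Oa1-/- arrays, against 299, 231 and 281 on the WT arrays (1418158_at). Here WT replicate 1, the array with the lowest Krt12 signal, was the highest. Grhl2, a grainyhead factor that activates Cdh1 and claudin genes, was also highest on WT replicate 1, at 262, with 178 to 225 on the Oa1-/- arrays and 195 and 197 on the other WT arrays. Grhl3, its relative in the epidermal barrier, read 90.4 to 136 on the Oa1-/- arrays and 68.2 to 118 on the WT arrays, and was lowest on WT replicate 1, as Krt12 was. Esrp1, a splicing factor of epithelial isoforms, read 178.0 to 212 on the Oa1-/- arrays and 123 to 251 on the WT arrays. Ovol1, a zinc finger transcription factor of differentiating epithelium, was under the filter at 52.8 to 64.5 on the Oa1-/- arrays and 41.7 to 65.0 on the WT arrays. Sfn, the 14-3-3 protein of keratinocytes, read 68.8 to 93.9 on the Oa1-/- arrays and 50.5 to 84.9 on the WT arrays, and Lypd3, a surface protein of suprabasal cells, 40.5 to 72.3 and 60.3 to 105.8.

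**Figure D2:**
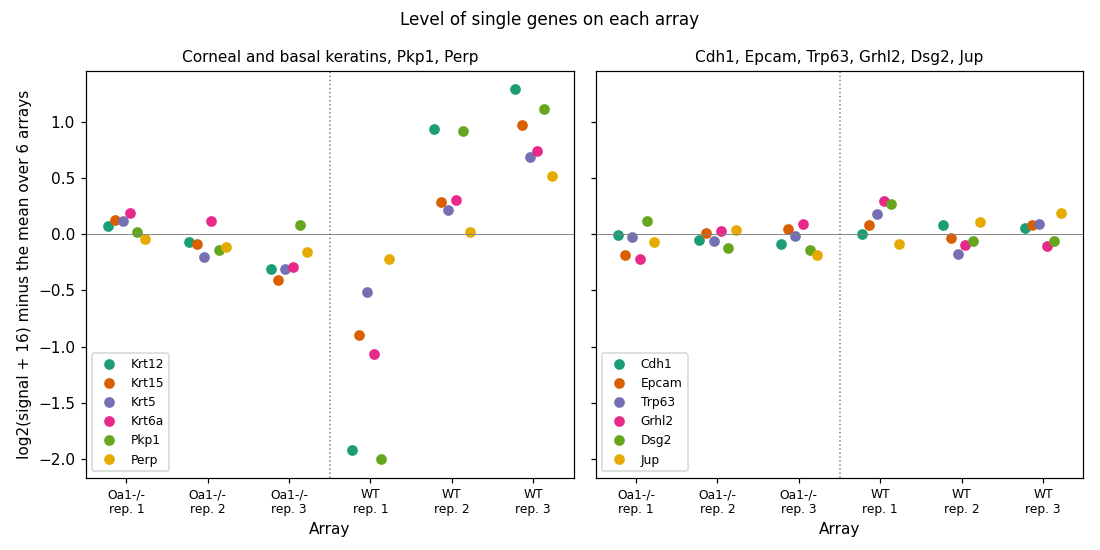
Level of single genes on each array, as log2(signal + 16) minus the gene's mean over the 6 arrays, Oa1-/- left of WT in each panel. In the left panel the genes are low on WT replicate 1 and high on WT replicate 3, with the Oa1-/- arrays between them. In the right panel all points lie within 0.5 of the mean.

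The genotype comparison asked whether any of these genes differed between Oa1-/- and WT. A linear model was fitted to log2(signal + 16) for the 27022 probe sets whose mean signal passed the filter, of which 34 belonged to member genes. Of these 34, 0 had a limma adjusted p below 0.05, as did 0 of all probe sets (0%). The same fit did not call the targeted gene Gpr143 either (log2 change -2.82, limma adjusted p = 0.318). A count of 0 therefore does not show that the member genes were unchanged. At an unadjusted p below 0.05 there was 1 of 34, the Dsg2 probe set 1460380_at, where 4.1% of all probe sets had one. The groups did not overlap for 5 of the 34 (14.7%), where 10.2% of all probe sets did not. Single arrays moved the count at an unadjusted p below 0.05, which was 8 of 32 (25%) without WT replicate 1, where 3.95% of all probe sets had one. It was 4 of 34 without Oa1-/- replicate 1 (4.31% of all), 2 of 34 without Oa1-/- replicate 3 (4.55% of all) and 2 of 35 without WT replicate 2 (3.76% of all). It was 0 of 34 without WT replicate 3 (4.27% of all) and without Oa1-/- replicate 2 (3.16% of all). The adjusted count was 0 in each of these cases.

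By gene, 9 of 30 members had a higher and 21 a lower mean log2(signal + 16) in Oa1-/- than in WT, with a median log2 change of -0.10, where the median over all probe sets tested was -0.01 and 52.6% of them were lower. Without WT replicate 3 the median was -0.07, and without WT replicate 1 it was -0.20. The lowest log2 change of a tested gene was that of Lypd3 (-0.53, SE 0.28) and the highest that of Grhl3 (0.23, SE 0.25). For Krt12 and Pkp1 the standard errors of 0.71 and 0.72 leave even sizeable differences in either direction undetectable with 3 arrays a group. The p-values rest on the spread between litter pools, with each probe set's variance drawn by limma toward that of probe sets of similar signal.

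**Figure D3:**
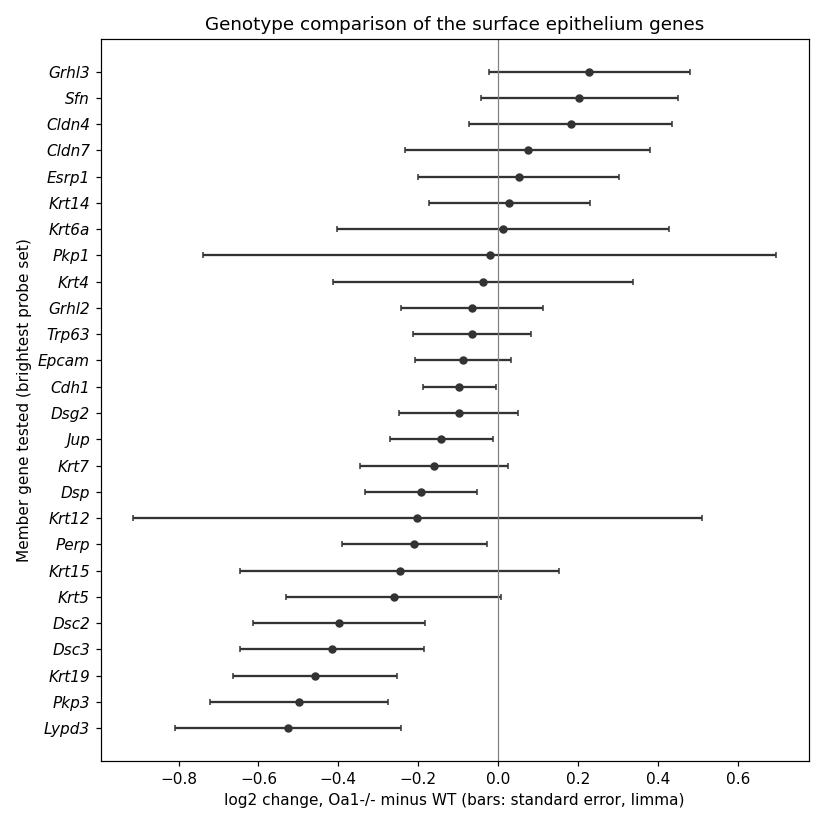
Log2 change, Oa1-/- minus WT, of the 26 member genes whose brightest probe set passed the filter, with the standard error from limma as bars. Points range from -0.53 (Lypd3) to 0.23 (Grhl3), and 0 of them passed an adjusted p of 0.05.

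The spread over the 6 arrays was described next. Of the 26 genes whose brightest probe set passed the filter, 11 (42.3%) spanned more than 1 on the log2 scale over the 6 arrays, as did 15.8% of all probe sets tested. The standard deviation was larger in WT than in Oa1-/- for 19 of the 26 (73.1%) and for 49.2% of all probe sets, with a median of 0.19 in Oa1-/- and 0.35 in WT, where all probe sets had 0.16 in Oa1-/- and 0.17 in WT. Of the 52 other epithelial genes described below, 9 (17.3%) spanned more than 1, and 28 (53.8%) had the larger standard deviation in WT. WT replicate 3 was the highest array for 13 of the 26 genes and for 19.7% of all probe sets, and WT replicate 1 was the lowest for 11 of the 26 and for 19.4% of all. WT replicate 1 was also the highest array for 6 of the 26 (23.1%, and 20.2% of all), and Oa1-/- replicate 3 the lowest for 8 of the 26 (30.8%, and 12.8% of all). On WT replicate 3 the ratio of 3' to 5' control signal was 0.985 for Gapdh, against 0.798 to 0.841 on the other 5 arrays. For actin it was 1.34, against 1.19 to 1.30 on the others. The Y-linked genes Eif2s3y and Kdm5d were at background on that array only. What part these differences had in the counts was not tested. WT replicate 1 lowest together with WT replicate 3 highest held for 8 of the 26 genes (30.8%), Krt4, Krt5, Krt6a, Krt12, Krt15, Dsp, Perp and Pkp1, and for 5.95% of all probe sets. It was not particular to the members, as it held for 9 of 19 lens genes (47.4%) and 8 of the 52 other epithelial genes (15.4%). This is the order of the brightest probe set. Besides the further Dsp probe set, Krt6a 1422783_a_at was highest on WT replicate 2, at 202 against 167 on WT replicate 3. Krt4 1418735_at, under the filter, was lowest on WT replicate 2, at 21.6 against 22.4 on WT replicate 1. These counts were made after the values had been seen and have no test.

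The level of the 30 genes on an array was taken as the mean difference of log2(signal + 16) from each gene's own mean. It was -0.02, -0.12 and -0.08 on the Oa1-/- arrays and -0.19, 0.09 and 0.31 on the WT arrays, a distance of 0.50 between the highest and the lowest array, which was 0.28 without WT replicate 3. For the 6 genes with a mean signal of at least 500 (Krt5, Krt12, Krt15, Dsp, Perp and Cdh1) the distance was 1.27, from -0.63 on WT replicate 1 to 0.64 on WT replicate 3.

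Markers of other tissues moved over the same arrays. All 19 lens genes measured were lowest on WT replicate 1, where their level was -0.57, against -0.06 to 0.18 on the other 5 arrays, and their summed signal ran from 239962 to 262032 on the Oa1-/- arrays and from 195400 to 266597 on the WT arrays. Skeletal muscle genes were at 0.62, -0.48 and 0.09 on the Oa1-/- arrays and at -0.82, 0.06 and 0.54 on the WT arrays, with 8 of 13 genes lowest on WT replicate 1, and their summed signal ran from 8051 to 18596 on the Oa1-/- arrays and from 6380 to 18249 on the WT arrays. The level of the blood list had the opposite order, at -0.35, 0.06 and 0.07 on the Oa1-/- arrays and at 0.67, 0.02 and -0.47 on the WT arrays. Of the 9 blood genes, 5 were highest on WT replicate 1, among them the embryonic globin Hbb-y at 19360 there and 2752 on WT replicate 3, and 3 were lowest on WT replicate 3. The genes did not all share this order. Alas2 read 437 on WT replicate 1 and 580 on WT replicate 3, and Hba-a1 was near the background, at 4.95 to 39.0 over the 6 arrays. The summed signal of the 9 genes ran from 9164 to 12587 on the Oa1-/- arrays and from 6031 to 26093 on the WT arrays. The levels of the neural retina, pigment epithelium and ciliary margin lists spanned 0.32, 0.27 and 0.16, and that of 21 genes of the corneal stroma, endothelium and periocular mesenchyme 0.16. WT replicate 1 was also the lowest array for 8 of 11 neural retina genes, 7 of 14 pigment epithelium genes, 9 of the 21 stroma and mesenchyme genes and 1 of 10 ciliary margin genes. The neural retina level there was -0.21. Within the stroma list Kera, encoding keratocan of the corneal stroma, read 5184, 5049 and 4561 on the Oa1-/- arrays, against 3180 on WT replicate 1, 5999 on WT replicate 2 and 6575 on WT replicate 3, the order of Krt12. Of the 21 genes in that list, 12 were highest on WT replicate 3 and 6 on WT replicate 1. Among those 6 were Foxc1, at 1278 there and 751 on WT replicate 3, and Twist1, at 1012 and 671. The small span of the list level thus covers genes with opposite orders. The part of these tissues, and of the dissection, in the spread of the keratins was not tested.

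**Figure D4:**
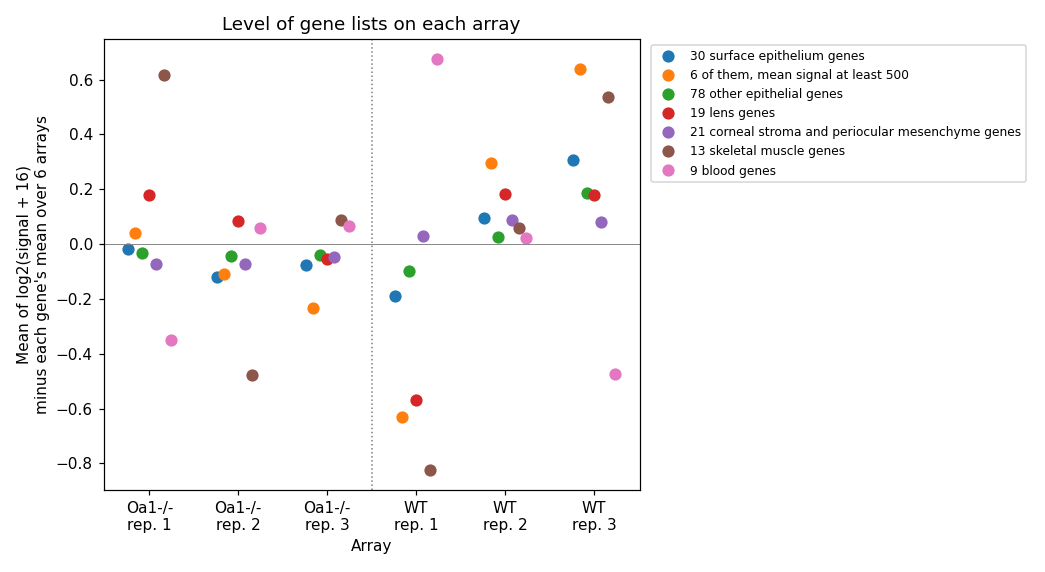
Level of gene lists on each array, as the mean over genes of log2(signal + 16) minus the gene's mean over the 6 arrays, Oa1-/- left of WT. Surface epithelium, lens and muscle points are all low on WT replicate 1 (-0.19, -0.57 and -0.82), where the blood point is at 0.67.

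Other epithelial genes were taken from a list of 84 symbols, of which 78 had a probe set and 52 passed the filter. Of the 52, 0 had a limma adjusted p below 0.05 and 5 an unadjusted p below 0.05 (9.62%, where 4.1% of all probe sets had one), 1 higher and 4 lower in Oa1-/-. Dkk2, a Wnt antagonist that the ocular surface needs to become cornea, read 1426, 1451 and 2169 on the Oa1-/- arrays, against 2419, 2497 and 2373 on the WT arrays, without overlap. Its log2 change was -0.55, with an unadjusted limma p of 0.00649 and an adjusted p of 0.985. Aldh3a1, the aldehyde dehydrogenase of the cornea, read 94.5, 101 and 128 on the Oa1-/- arrays, against 109, 279 and 295 on the WT arrays, with WT replicate 1 inside the Oa1-/- range (log2 change -0.87, unadjusted limma p of 0.0329, adjusted p of 0.985). Calml3, a calmodulin-like protein of keratinocytes, had a log2 change of -0.52, Cldn3 one of -0.50 and the simple epithelium keratin Krt20 one of 0.56, with unadjusted limma p-values of 0.0448, 0.0490 and 0.0251 and an adjusted p of 0.985 each. The next by p were Gata3 (-0.45), the epithelial factor Klf5 (-0.49) and the integrin Itga6 (0.20), all above 0.05. The count of 5 was 9 without WT replicate 1 (3.95% of all probe sets had one) and 2 without Oa1-/- replicate 3 (4.55% of all). It was 1 without WT replicate 3 (4.27% of all) or without Oa1-/- replicate 2 (3.16% of all). The 4 brightest in the list, Tkt, Clu, Pkp4 and Cldn12, which are widely expressed, had log2 changes of -0.08, -0.10, -0.01 and 0.00. The list's level spanned 0.28 over the arrays, with WT replicate 3 highest at 0.19 and WT replicate 1 lowest at -0.10, and 26 of the 52 genes were highest on WT replicate 3, as were 19.7% of all probe sets.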

How the data were processed

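The authors deposited a linear MAS5 signal intensity for each probe set, as the submitters' processing notes name that tool without a version. The trimmed mean was 500.002 on every array, so the authors had scaled them alike. Probe sets were named by GEO's platform annotation, with 1 symbol for 34945, several for 932 and none for 9160 beside 64 control probe sets. The 6 arrays correlated at 0.962 to 0.989, and 0 pairs were identical.

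Signals were taken to log2(signal + 16) and not normalized again. Among non-control probe sets, those above the 40th percentile of the mean (66.1) were kept. Oa1-/- minus WT was fitted with limma 3.58.1 under R 4.3.3 (lmFit, eBayes with an intensity trend), with two-sided tests. P-values were adjusted over all 27022 by the Benjamini-Hochberg method, with a threshold of 0.05. A fold change on this scale understates changes of dim probe sets. The number of arrays limits the precision. Members are given in full where the mean signal was at least 500, a probe set had an unadjusted p below 0.05, the range was among the 5 widest or the groups did not overlap. The last criterion was added after the values were seen. The members and lists were chosen with earlier results of these data known. The code was tested on simulated data. Deviations from the group means correlated at -0.29, 0.16 and -0.23 for same-numbered arrays, and at -0.30 to 0.36 for the other pairs. The main fit therefore used no pairing by number. With 3 arrays a group these values cannot exclude a batch shared by number. Alternatives were other pseudocounts, filters, scalings, variance settings, array weights, a replicate block, other choices of probe sets, and arrays left out.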

Additional observations from a re-analysis of the deposited data

How the results depend on the processing

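No member probe set passed an adjusted p of 0.05 in any alternative run. With each array centred on its median 5 probe sets of the whole table passed (Gpr143, Slc25a29, Xist, Kantr and Pisd-ps3), and with array weights 2 (Slc25a29 and Kantr). The count of member probe sets with an unadjusted p below 0.05 was 1 of 34 (2.94%), where 4.1% of all probe sets had one. It was 2 of 57 with no filter (3.51%, and 4.37% of all) and 0 of 10 with a filter at the 70th percentile (4.49% of all). It was 3 of 34 with no intensity trend (8.82%, and 4.58% of all) and 7 of 34 with array weights (20.6%, and 11.4% of all). With 1 array left out it ran from 0 to 8. For the other epithelial genes the count of 5 was 2 with the 70th percentile filter, where 4.49% of all probe sets had one. It was 3 with quantile normalization, with median centring or with the replicate block (4.46%, 2.79% and 3.28% of all). It was 13 with array weights (11.4% of all), and it ran from 1 to 9 with 1 array left out (3.16% to 4.55% of all). The block left the count of member probe sets at 1 and the adjusted calls at 0. With the 70th percentile filter, which keeps 8 member genes, 0 had a higher mean in Oa1-/-, and the distance between the highest and lowest array level was 0.99. That distance was 0.28 without both WT replicate 3 and Oa1-/- replicate 1, 0.21 without WT replicates 1 and 3, and 0.28 to 0.50 with 1 array left out. Leaving out these pairs was chosen after the data were seen, and the lone WT array of the second pair was assumed to vary like the other arrays.

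Directions of uncalled genes turned. Pkp1 (-0.02) was 0.12 with a pseudocount of 1, 0.0085 with median centring and 0.51 without both arrays that stood apart, where Krt12 was 0.30 and Krt15 0.0548. Krt6a (0.01) was -0.0189 with a pseudocount of 64, -0.0681 with array weights and -0.30 without WT replicates 1 and 3, where Dsg2 was 0.0074. With all probe sets of a gene averaged, Dsp was 0.0592 and Dsg2 0.0287. With 1 array left out, log2 changes ran from -1.21 to 0.39 for Krt12, -0.76 to 0.18 for Krt15, -0.58 to 0.0185 for Krt5, -0.52 to 0.39 for Krt6a, -1.03 to 0.53 for Pkp1 and -0.18 to 0.0111 for Dsg2. The cause was not tested. Among the genes given in full, no alternative turned Cdh1, Krt13, Krt19, Perp or Pkp3. Of all 30 genes, 19 turned in at least 1 alternative and 11 kept their direction. Probe sets near the bacterial controls, as of Krt13 and Krt17, limit what can be said of those genes. Array weights, the block and variance settings do not enter the array level and gave no value for it.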

Other observations

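Genes outside the list were ranked by the correlation of log2(signal + 16) with Krt12 over the 6 arrays, among 869 probe sets that passed the filter, had a mean signal of at least 200 and spanned at least 1 on the log2 scale. The ranking was made after the values had been seen, has no p, and its points share arrays and scaling. Kera, of the corneal stroma, came first with a correlation of 0.996. Fmod (0.991), the collagen-binding proteoglycan fibromodulin, Tnxb (0.985), the matrix protein tenascin X, the protease inhibitor A2m (0.984) and Ltbp2 (0.983), a microfibril protein of the eye, followed. Tnxb read 356, 301 and 269 on the Oa1-/- arrays, against 136, 487 and 739 on the WT arrays. Upk1b, a uroplakin also found in corneal and conjunctival epithelium, read 310.1, 275 and 255 on the Oa1-/- arrays, against 168, 331 and 363 on the WT arrays (1455464_x_at). Tnmd, tenomodulin of tendon and sclera, read 1274, 1191 and 1159.5 on the Oa1-/- arrays, against 597, 1415 and 1748 on the WT arrays.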
